A study of Mus musculus with 25 samples.

Results

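The youngest nerves of 2 mouse models of Charcot-Marie-Tooth disease type 1A (CMT1A) are described here: the bulk RNA-seq libraries of sciatic nerve taken at 3 and 5 weeks of age. They are 8 of the 25 libraries of the series, 4 from transgenic and 4 from control mice, and were chosen by age and group label alone. C3 mice (B6.Cg-Tg(PMP22)C3Fbas/J, C57BL/6J background) carry 5 copies of a yeast artificial chromosome with human PMP22, and their controls, WT-C3, are C57BL/6J mice. C22 mice (Tg(PMP22)C22Clh, FVB/NRJ background) carry 10 copies, and their controls, WT-C22, are FVB/NRJ mice. C3 is a spontaneous partial revertant of C22, and both lines were bred as heterozygotes. The labels name no cell type to which the transgene is limited. Each library is 1 pool of nerves from 4 to 5 males and females of 1 group and age, so no group has a second pool at any age. The 3-week and 5-week pools of a group therefore stood in for replicates, p-values measure the spread between such pools and not between animals, and age-specific changes within a group add to that spread. Since strain and copy number differ together, they cannot be told apart in any comparison of C3 with C22.

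PMP22 is a tetraspan protein of compact myelin, the membrane stack that Schwann cells wrap around axons, and a duplication of its gene causes CMT1A, a demyelinating neuropathy. Myelin is rich in cholesterol, galactolipids and plasmalogens, which Schwann cells make themselves during the first weeks of life, when lipid synthesis in the nerve is high. Myelinating Schwann cells can leave that state, and then turn down myelin and lipid genes and turn on genes of immature or repair cells such as Jun, Sox2 and Ngfr. The question asked of these libraries is which of these changes were already present at 3 and 5 weeks in both models.

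Values are given as CPM, counts scaled to the size of each library by the TMM method, with 3 weeks before 5 weeks, and changes as log2 fold changes ± SE from edgeR's quasi-likelihood fit, with Benjamini-Hochberg adjusted p under 0.05 taken as a call. Genes were tested if their log2 CPM was above 1 in at least 2 of the 8 libraries, which left 14079. The early transgene effect compares 4 transgenic with 4 control libraries with strain as a block. Another fit of the same 8 libraries, with 1 level per group, gives the change in C3, in C22 and their difference.

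Depth on genes ran from 10196601 to 33571684 counts with a median of 23149240.5, so that 3 counts correspond to between 0.0894 and 0.294 CPM. The human gene of the transgene locus with most counts (ENSG00000109099) was at 13833 and 13522 CPM in C3 and at 11870 and 13640 CPM in C22, against 6.31 and 3.92 CPM in WT-C3 and 0.306 and 0.211 CPM in WT-C22. It separated the libraries as labelled. Mouse Pmp22 (chr11:63019718-63050600, GRCm39, plus strand) was at 11241 and 11117 CPM in C3 against 28745 and 25929 CPM in WT-C3, and at 4483 and 4621 CPM in C22 against 32689 and 27565 CPM in WT-C22. It fell by 2.01 ± 0.29 on the log2 scale (adjusted p = 0.0036, edgeR), with a change of -1.29 ± 0.12 in C3 and of -2.73 ± 0.13 in C22, with the uncertainty that reads may be split between the mouse and human copies. Skeletal muscle genes differed between pools without following the labels, whereas blood genes, given below, were lower in sum in every transgenic pool. The 11 muscle genes summed to between 43.0 and 9604.5 CPM, highest in WT-C22 and in WT-C3 at 5 weeks. Of these, 0 of 10 tested were called in either direction, although 10 were called lower without the 3-week WT-C22 library. Y-linked genes summed to between 53.8 and 190.9 CPM, with 0 of 4 called but 4 called higher without the 5-week C3 library, so the pools differed in Y-linked RNA. In whole nerve, fewer cells of a type and less RNA per cell cannot be told apart.

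At 3 and 5 weeks, 1833 genes were higher (13% of those tested) and 1792 were lower (12.7%) in transgenic nerve, with 392 and 354 of them changed by more than 2-fold. Of these 3625 genes, 3559 moved in the called direction in 4 of 4 comparisons of a model with its own control at the same age, 1812 up and 1747 down. Since the calls came from the same libraries, this count gives no separate support for them. In C3 6.35% of all genes were called higher and 7.32% lower, and in C22 14.7% and 15.8%. Counts of list members in the pooled fit and in each model are to be read beside these shares. The median over all 14079 genes in the pooled fit was -0.01, which the TMM scaling sets near 0. With library size in place of TMM, that median was 0.145 and the split was 3591 higher and 1110 lower, and small changes are read relative to that shift. The count of 3625 was 2063 without the 3-week C22 library and 703 without both 5-week control libraries, which held the most muscle RNA. That last setting leaves controls of 3 weeks only against transgenic pools of both ages, so changes with age enter every count given for it.

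The largest rises were those of genes with little RNA in control nerve. Piwil4 (chr9:14607526-14652036), a member of the PIWI family that binds small RNAs in the germ line, was at 52.0 and 42.5 CPM in C3 and at 164 and 147 CPM in C22, against 1.62 and 1.1 CPM in WT-C3 and 2.60 and 2.01 CPM in WT-C22. Cxcl14 (chr13:56436352-56444603), a chemokine, was at 174 and 149 CPM in C3 and at 484 and 488 CPM in C22, against 5.85 and 10.1 CPM in WT-C3 and 9.91 and 15.8 CPM in WT-C22. For both genes every transgenic library lay far above every control library. The rise was 5.67 ± 0.21 for Piwil4 (adjusted p = 2.8e-05, edgeR) and 4.81 ± 0.28 for Cxcl14 (adjusted p = 0.00019), and neither differed in size between models past the threshold (adjusted p of the difference 0.12 and 0.18).

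Other large rises were those of a channel, a growth factor ligand, a LIM-domain protein and an adhesion receptor. Kcnj10 (chr1:172168765-172201652), the inward rectifying potassium channel Kir4.1, was at 148 and 118 CPM in C3 and 244 and 231 CPM in C22, against 12.7 and 9.32 CPM in WT-C3 and 10.4 and 7.49 CPM in WT-C22. Its rise of 4.15 ± 0.26 (adjusted p = 0.00022) was larger in C22 than in C3 by 1.11 ± 0.27 (adjusted p = 0.043). Btc encodes betacellulin, a ligand of the epidermal growth factor receptor, and was at 14.6 and 14.5 CPM in C3 and 11.2 and 9.86 CPM in C22, against 1.0 and 1.02 CPM in WT-C3 and 1.38 and 1.37 CPM in WT-C22. Its rise of 3.36 ± 0.20 (adjusted p = 0.00022) was the only one of the 12 with a larger fitted value in C3, and the difference of -0.91 ± 0.28 missed the threshold (adjusted p = 0.091). Csrp2, a LIM-domain protein, was at 189 and 171 CPM in C3 and 591 and 465 CPM in C22, against 41.0 and 28.1 CPM in WT-C3 and 36.3 and 25.8 CPM in WT-C22. Adgrb1, an adhesion receptor for phosphatidylserine, was at 22.4 and 26.6 CPM in C3 and 46.5 and 65.1 CPM in C22, against 3.76 to 5.62 CPM in the 4 controls.

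Several induced genes were far stronger in C22. Cmtm2b, a MARVEL-domain protein, was at 2.97 and 3.77 CPM in C3 but at 58.2 and 67.6 CPM in C22, with controls between 0.235 and 0.95 CPM. Diras2, a small GTPase of the Ras family, was at 4.80 and 5.21 CPM in C3 and 30.4 and 34.4 CPM in C22, with controls between 0.616 and 0.803 CPM. Both were called larger in C22, by 3.20 ± 0.54 (adjusted p = 0.009) and 2.36 ± 0.32 (adjusted p = 0.0036). Slain1, a protein of growing microtubule ends, was at 6.79 and 4.76 CPM in C3 against 1.15 and 0.94 CPM in WT-C3, and at 13.9 and 21.3 CPM in C22 against 0.306 and 0 CPM in WT-C22, and its difference between models was not called without the 5-week C22 or the 3-week WT-C3 library. Ppp2r2c, a regulatory subunit of protein phosphatase 2A, rose by 3.90 ± 0.54 (adjusted p = 0.0031), from controls of 0.844 to 2.69 CPM to between 11.4 and 49.1 CPM. Marveld3, a tight junction protein, rose by 4.72 ± 0.33 (adjusted p = 0.00022) and Tyrp1, an enzyme of melanin synthesis, by 3.67 ± 0.19 (adjusted p = 8.9e-05), and neither differed between models past the threshold (adjusted p 0.5 and 0.65). The dot plot of these genes shows no overlap of transgenic and control libraries for any of them, against 13% of all genes. They were chosen for large rises in these same libraries, so this separation gives no further support.

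**Figure D1:**
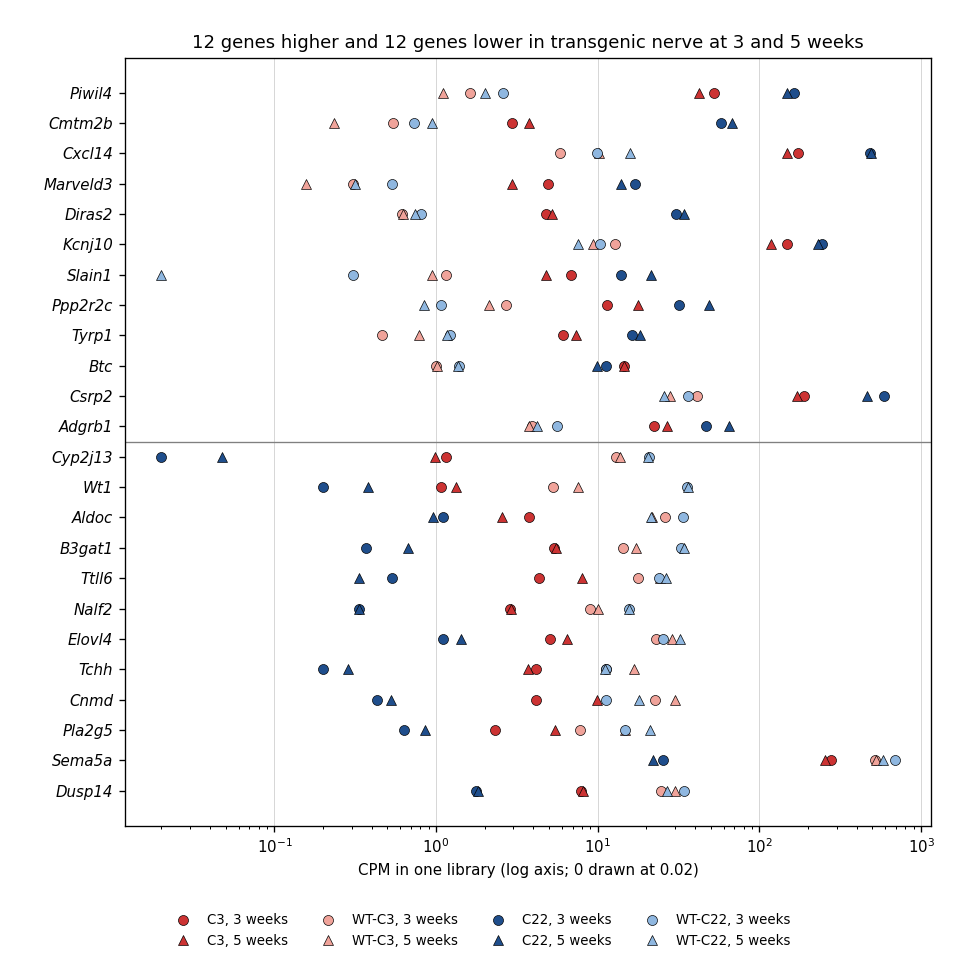
CPM of 24 genes (rows) in each of the 8 early libraries on a log axis, with 12 genes higher and 12 lower in transgenic nerve; circles are 3 weeks, triangles 5 weeks, dark colours transgenic and light colours control, and a value of 0 is drawn at 0.02. In every row the 4 transgenic libraries lie on 1 side of the 4 control libraries, and C22 (dark blue) lies farther from its control than C3 (dark red) for most genes. The genes were chosen for large changes in 1 direction in these libraries, so their separation gives no further support.

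The largest falls included genes of lipid, glycan and sugar metabolism. Cyp2j13 (chr4:95915771-95965813), a cytochrome P450, was at 1.16 and 0.989 CPM in C3 against 12.9 and 13.7 CPM in WT-C3, and at 0 and 0.0476 CPM in C22 against 20.8 and 20.4 CPM in WT-C22. Elovl4, an elongase of very long chain fatty acids, was at 5.07 and 6.47 CPM in C3 against 22.8 and 28.6 CPM in WT-C3, and at 1.1 and 1.43 CPM in C22 against 25.4 and 32.2 CPM in WT-C22. Elovl4 fell by 3.20 ± 0.46 (adjusted p = 0.0034), Pla2g5, a secreted phospholipase A2, by 2.88 ± 0.65 (adjusted p = 0.015) and Cyp2j13 by 5.05 ± 0.76 (adjusted p = 0.004). Aldoc (chr11:78213619-78218889), the glycolytic enzyme aldolase C, was at 3.74 and 2.55 CPM in C3 and 1.1 and 0.953 CPM in C22, with controls between 21.3 and 33.9 CPM. B3gat1, which adds the glucuronic acid of the HNK-1 glycan, was at 5.37 and 5.48 CPM in C3 against 14.3 and 17.3 CPM in WT-C3, and at 0.366 and 0.667 CPM in C22 against 32.6 and 34.2 CPM in WT-C22. It fell by 1.54 ± 0.18 in C3 and by 6.05 ± 0.24 in C22, and the difference of -4.51 ± 0.30 was called (adjusted p = 0.00023). In the pooled fit the call of B3gat1 was lost without either C22 library and that of Pla2g5 without the 5-week one.

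Regulators and guidance genes fell as well. Wt1 (chr2:104956625-105003961), a zinc finger transcription factor, was at 1.07 and 1.33 CPM in C3 against 5.31 and 7.52 CPM in WT-C3, and at 0.2 and 0.381 CPM in C22 against 35.7 and 36.3 CPM in WT-C22. Sema5a, a semaphorin of axon guidance, was at 276 and 256 CPM in C3 against 522 and 526 CPM in WT-C3, and at 25.4 and 21.8 CPM in C22 against 685 and 577 CPM in WT-C22. It fell by 0.98 ± 0.13 in C3 and by 4.74 ± 0.15 in C22. Dusp14, a phosphatase of MAP kinases, fell by 2.84 ± 0.44 (adjusted p = 0.0043). Ttll6, a tubulin polyglutamylase, fell by 3.34 ± 0.74 (adjusted p = 0.015), and Nalf2, an auxiliary factor of the sodium leak channel, by 3.25 ± 0.68 (adjusted p = 0.012). Tchh (trichohyalin) fell by 3.17 ± 0.64 (adjusted p = 0.011) and Cnmd (chondromodulin) by 3.05 ± 0.59 (adjusted p = 0.0093). The pooled call of Sema5a was lost without either C22 library or the 5-week WT-C22 library. All 12 of these genes fell more in C22 than in C3, with adjusted p of the difference between 9.9e-05 and 0.026.

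Cholesterol synthesis was lower as a whole. All 20 of its 20 listed enzymes were lower in transgenic nerve, against 12.7% of all genes, with a median of -1.74 against -0.01 over all genes. Each enzyme was lower in each of the 4 same-age comparisons, and 19 of 20 had no overlap between the 4 transgenic and 4 control libraries, against 11.3% of all genes. In C3, 17 were called lower (7.32% of all genes), with a median of -1.23, and in C22 20 were (15.8% of all genes), with a median of -2.37. In the pooled fit 19 or 20 were called lower when any 1 library was left out. Without both 5-week control libraries 20 were, with a median of -2.03. That setting keeps only 3-week controls, whose levels of these enzymes, given below, were above those at 5 weeks. In C3 alone far fewer than the 17 were called without the 3-week WT-C3 library. The C3 median ran from -1.45 to -0.83 when any 1 library was left out.

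Enzymes of this pathway share binding sites of the factors SREBP2 and NF-Y, the second of which binds CCAAT. To show the sequence that precedes genes of this group, the 250 bases before the start of 3 of them are printed 5′ to 3′ from RefSeq (GRCm38.p6), with CCAAT on either strand and matches to TCACNCCAC, a form of the sterol element, in capitals. They are Hmgcs1 (chr13:119690101-119690350, plus strand), which holds 3 CCAAT and 1 sterol element, Idi1 (chr13:8885356-8885605, plus strand), which holds 2 CCAAT, and Sc5d (chr9:42264301-42264550, minus strand), which holds 1.
Hmgcs1: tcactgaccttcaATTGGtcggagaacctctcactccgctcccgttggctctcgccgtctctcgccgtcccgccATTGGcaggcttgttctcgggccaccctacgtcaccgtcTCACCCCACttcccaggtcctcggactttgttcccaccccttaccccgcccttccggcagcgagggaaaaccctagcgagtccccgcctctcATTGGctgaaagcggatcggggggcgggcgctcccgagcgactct
Idi1: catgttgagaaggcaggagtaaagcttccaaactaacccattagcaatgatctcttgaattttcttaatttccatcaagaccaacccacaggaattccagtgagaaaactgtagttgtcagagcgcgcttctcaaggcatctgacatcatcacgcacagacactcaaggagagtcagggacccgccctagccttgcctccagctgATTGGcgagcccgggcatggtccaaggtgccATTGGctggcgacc
Sc5d: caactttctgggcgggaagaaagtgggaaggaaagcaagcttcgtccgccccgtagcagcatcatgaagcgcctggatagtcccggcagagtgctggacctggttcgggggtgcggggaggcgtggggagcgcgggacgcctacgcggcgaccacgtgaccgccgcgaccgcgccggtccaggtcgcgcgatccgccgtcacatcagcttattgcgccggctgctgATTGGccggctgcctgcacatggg

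Of the 20 enzymes, 15 had a start in the table, with 18 windows in all. CCAAT was found in 14 of these 18 windows and in 33.8% of all 32851 windows, and TCACNCCAC in 1 of 18, that of Hmgcs1, and in 1.05% of all windows. A match is a description of the letters, and no binding was measured.

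Hmgcs1 (chr13:120151915-120170470, GRCm39), the synthase at the entry of the mevalonate pathway, was at 1276 and 1019.5 CPM in C3 against 3152 and 2158 CPM in WT-C3, and at 387 and 395 CPM in C22 against 2876 and 2113 CPM in WT-C22. Idi1 (chr13:8935537-8942487), which makes the building blocks of isoprenoids interchangeable, was at 88.1 and 65.0 CPM in C3 against 246 and 165 CPM in WT-C3, and at 25.5 and 25.2 CPM in C22 against 214 and 171 CPM in WT-C22. Sqle, the epoxidase of squalene, was at 161 and 135 CPM in C3 against 403 and 255 CPM in WT-C3, and at 58.4 and 59.8 CPM in C22 against 338 and 268 CPM in WT-C22. In all 3 genes the levels ordered as C22 below C3 below both controls at each age. They fell by 1.94 ± 0.32 (adjusted p = 0.0052), 2.17 ± 0.32 (adjusted p = 0.0037) and 1.75 ± 0.27 (adjusted p = 0.0042), in that order, and all 3 fell more in C22 (adjusted p of the difference 0.021, 0.018 and 0.045).

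The sterol ring enzymes were lower too. Lss, which closes the ring, was at 139.8 and 89.0 CPM in C3 against 352 and 207 CPM in WT-C3, and at 32.6 and 36.8 CPM in C22 against 347 and 221 CPM in WT-C22. Sc5d (chr9:42162891-42175605), a desaturase of the last steps, was at 180.1 and 172 CPM in C3 against 498 and 457 CPM in WT-C3, and at 39.9 and 43.6 CPM in C22 against 389 and 368 CPM in WT-C22. Its levels moved little between 3 and 5 weeks in any group, and it fell by 1.44 ± 0.11 in C3 and by 3.18 ± 0.12 in C22. Cyp51, a demethylase, was at 238 and 179 CPM in C3 and 80.7 and 87.0 CPM in C22, with controls between 372 and 627 CPM, and fell by 1.88 ± 0.29 (adjusted p = 0.0045). Fdps, which makes farnesyl diphosphate, fell by 1.70 ± 0.31 (adjusted p = 0.0072) and Acat2, the thiolase of the first step, by 1.65 ± 0.24 (adjusted p = 0.0035). The smallest change was that of Ebp, a sterol isomerase, at 21.1 and 21.2 CPM in C3 and 17.9 and 23.8 CPM in C22 with controls between 29.1 and 39.6 CPM, and it fell by 0.73 ± 0.13 (adjusted p = 0.0077). In 8 of the 20 enzymes the difference between models was called, each larger in C22, against 7.9% of all genes with a called difference in either direction.

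The distance between each model and its control was wider at 3 than at 5 weeks, and control levels were lower at 5 weeks. From 3 to 5 weeks, 20 of 20 enzymes had a lower level in WT-C3 (median log2 change -0.59) and 20 of 20 in WT-C22 (-0.394), 17 of 20 in C3 (-0.301) and 3 of 20 in C22 (median 0.191). Summed over the list, C3 held 3865 and 3150 CPM, WT-C3 10069 and 6922 CPM, C22 1260.1 and 1375 CPM, and WT-C22 9243 and 6905 CPM. The median log2 ratio of the list to the same-age control was -1.31 and -0.98 in C3, and -2.73 and -2.12 in C22. Each of these age changes rests on 1 pool per point, and no gene was called for a difference between 5 and 3 weeks (0% of genes). The panels of 6 enzymes by age show the steep control lines beside the flat C22 line.

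**Figure D2:**
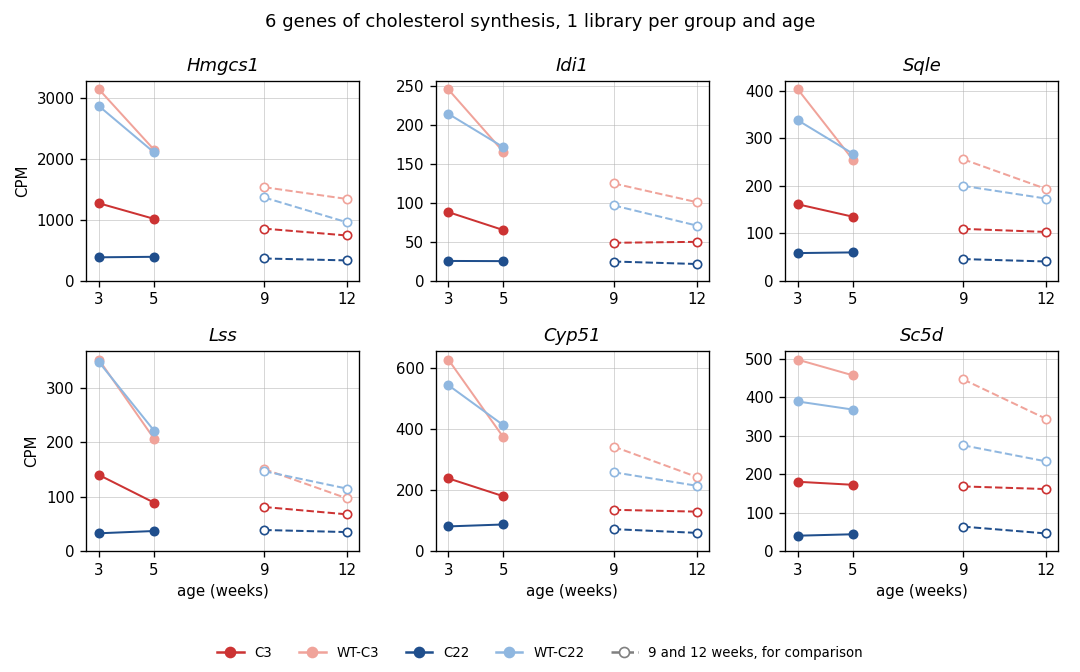
CPM (y axis) against age in weeks (x axis) for 6 cholesterol synthesis genes, 1 library per point; filled points are 3 and 5 weeks, open points with dashed lines 9 and 12 weeks. In each panel both control lines start highest at 3 weeks and C22 lies lowest, for example Hmgcs1 at 387 and 395 CPM in C22 against 2876 and 2113 CPM in WT-C22.

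Genes that sense or move sterols went both ways, with 4 of 21 tested higher and 6 lower and a median of -0.12, and the split turned to 6 higher and 4 lower with library size alone. Insig1, which holds the SREBP complex in the endoplasmic reticulum and is itself an SREBP target, was at 176 and 133 CPM in C3 against 450.1 and 339 CPM in WT-C3, and at 73.6 and 95.3 CPM in C22 against 356 and 304 CPM in WT-C22. It fell by 1.66 ± 0.18 (adjusted p = 0.0013), and Stard4, a sterol carrier, fell by 1.55 ± 0.26 (adjusted p = 0.0054). Npc2, which hands cholesterol out of the lysosome, fell by nearly the same amount in both models, by 0.95 ± 0.13 in C3 and by 0.92 ± 0.13 in C22. Abca1, the exporter of cholesterol to lipoproteins, was at 126 and 99.0 CPM in C3 against 37.4 and 50.0 CPM in WT-C3, and at 163 and 151 CPM in C22 against 48.6 and 54.4 CPM in WT-C22. It rose by 1.49 ± 0.13 (adjusted p = 0.0005), and Mylip, a ligase that degrades lipoprotein receptors, and Soat1, which esterifies cholesterol, rose by 0.49 ± 0.10 (adjusted p = 0.0092) and 0.42 ± 0.06 (adjusted p = 0.0039). The change of Abca1 did not differ between models past the threshold, with a difference of 0.25 ± 0.23 (adjusted p = 0.6).

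Fatty acid synthesis was also lower, with 11 of 17 genes called lower, against 12.7% of all genes, 0 higher and a median of -0.93. Without both 5-week controls 8 were called lower. Elovl6, an elongase of saturated chains, was at 275 and 238 CPM in C3 against 636 and 504 CPM in WT-C3, and at 109 and 128 CPM in C22 against 560.3 and 465 CPM in WT-C22. It fell by 1.63 ± 0.21 (adjusted p = 0.0024). The desaturases Fads1, Fads2 and Scd2 fell by 1.35 ± 0.18 (adjusted p = 0.0025), 1.54 ± 0.24 (adjusted p = 0.0042) and 0.93 ± 0.17 (adjusted p = 0.0081). The first steps varied between the C22 pools. Fasn, fatty acid synthase, was at 938 and 806 CPM in C3 against 2466 and 1476 CPM in WT-C3, but at 912 and 1633 CPM in C22 against 1837 and 1926 CPM in WT-C22. Its transgenic and control libraries overlapped, and its change was called in C3 (-1.18 ± 0.30, adjusted p = 0.034) and not in C22 (-0.56 ± 0.29, adjusted p = 0.18), with a difference of 0.61 ± 0.41 (adjusted p = 0.44). Acly, which makes cytosolic acetyl-CoA, fell by 1.15 ± 0.25 (adjusted p = 0.014) and Acaca, acetyl-CoA carboxylase, by 0.67 ± 0.18 (adjusted p = 0.028). The pooled calls of Fasn and Acaca were each lost when any of 5 of the 8 libraries was left out.

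In myelin sphingolipid metabolism 12 of 17 genes were lower, against 12.7% of all genes, 0 were higher and the median was -0.47. Without both 5-week controls 7 were called lower. Ugt8a, which makes galactosylceramide, the main galactolipid of myelin, was at 728 and 656 CPM in C3 against 2198 and 1849 CPM in WT-C3, and at 257 and 276 CPM in C22 against 2058 and 1861 CPM in WT-C22. All 4 transgenic libraries lay under every control. Ugt8a fell by 2.21 ± 0.27 (adjusted p = 0.0018) and more in C22, with a difference of -1.33 ± 0.19 (adjusted p = 0.0043). Fa2h, the fatty acid hydroxylase of galactolipids, and Cers2, the ceramide synthase of very long chains, fell by 1.11 ± 0.20 (adjusted p = 0.0072) and 1.1 ± 0.18 (adjusted p = 0.005). Sgms1, a sphingomyelin synthase, fell by 0.98 ± 0.15 (adjusted p = 0.0042), and Sptlc2, a subunit of the first enzyme of the pathway, by 0.87 ± 0.19 (adjusted p = 0.014) with overlap between arms.

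Plasmalogen and phospholipid synthesis had 12 of 17 genes lower, against 12.7% of all genes, 0 higher and a median of -0.49. With library size alone 8 were lower and 1 higher, without the 5-week C22 library 6 were lower, and without both 5-week controls 1 was. Peds1, the desaturase that makes plasmalogens, was at 159.8 and 153 CPM in C3 against 305 and 302 CPM in WT-C3, and at 104 and 108 CPM in C22 against 397 and 332 CPM in WT-C22. It fell by 1.37 ± 0.17 (adjusted p = 0.002). Pcyt1b, an enzyme of phosphatidylcholine synthesis, was at 37.0 and 34.2 CPM in C3 against 57.7 and 54.5 CPM in WT-C3, and at 10.2 and 11.8 CPM in C22 against 60.2 and 51.9 CPM in WT-C22. It fell by 0.65 ± 0.11 in C3 and by 2.35 ± 0.12 in C22, and the difference was called (adjusted p = 0.00093).

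**Figure D3:**
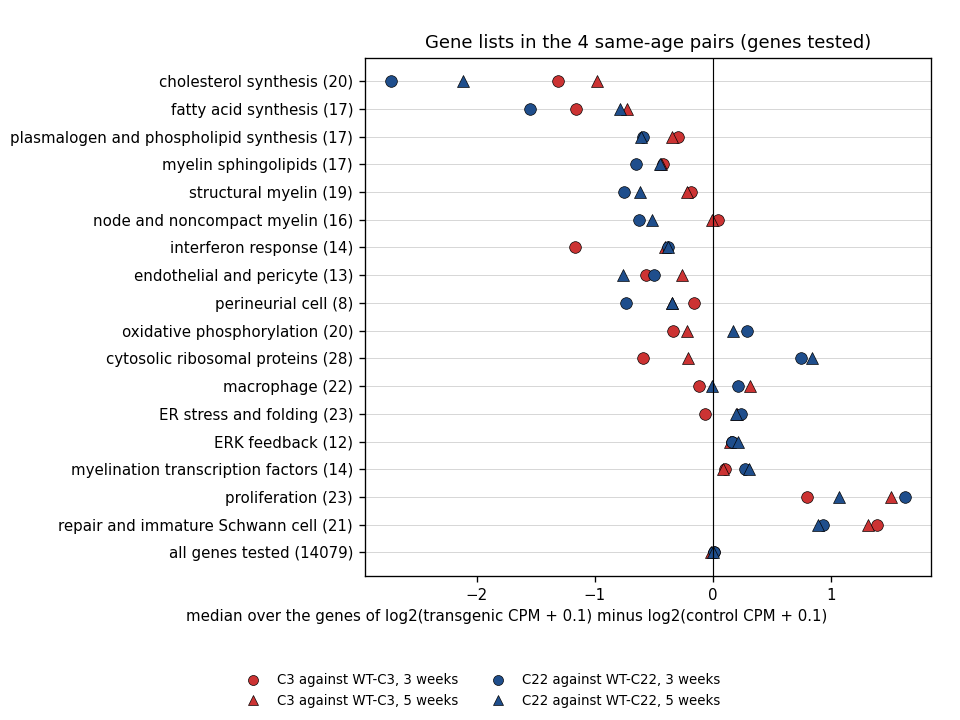
Median over the tested genes of a list of log2(transgenic CPM + 0.1) minus log2(control CPM + 0.1) (x axis) for 17 of the lists and all genes (rows, genes tested in brackets) and each of the 4 same-age comparisons; circles are 3 weeks and triangles 5 weeks, red C3 and blue C22. Cholesterol synthesis lies between -2.73 and -0.98 and is lowest among the lists drawn, which leave out blood (-2.49 and -2.14 in C3), skeletal muscle and adipocyte genes, some of them lower, repair and immature Schwann cell and proliferation genes lie above 0 in all 4, and cytosolic ribosomal proteins lie on opposite sides in C3 and C22.

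Structural myelin genes did not fall as 1 group: 8 of 19 were lower and 3 higher, against 12.7% and 13% of all genes, and the median was -0.37. Drp2, which links periaxin to dystroglycan, was at 2405 and 2184 CPM in C3 against 2845 and 3416 CPM in WT-C3, and at 324 and 383 CPM in C22 against 3288 and 2639.8 CPM in WT-C22. Its change was -0.45 ± 0.16 in C3 (adjusted p = 0.093) and -3.07 ± 0.17 in C22 (adjusted p = 9.7e-06), and the difference was called (adjusted p = 0.00057). Mbp, myelin basic protein, fell by 0.87 ± 0.21 (adjusted p = 0.018), Mal, a myelin proteolipid, by 1.01 ± 0.17 (adjusted p = 0.0051), Cd9, a tetraspanin, by 0.80 ± 0.14 (adjusted p = 0.007), and Mpdz, a scaffold, by 0.87 ± 0.20 (adjusted p = 0.016). Gjc3, a connexin of noncompact myelin, rose by 1.16 ± 0.21 (adjusted p = 0.0073) and Mag, the myelin-associated glycoprotein, by 0.53 ± 0.13 (adjusted p = 0.02). Leaving out the 5-week C22 library left 4 called lower, leaving out the 5-week WT-C22 library left 1 called higher, and without both 5-week controls 3 were lower and 0 higher. The calls of Mbp and Mag were each lost when any of 3 libraries was left out, and that of Mpdz without either C22 library.

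Among node and noncompact myelin genes 3 of 16 were lower and 1 higher in the pooled fit, against 12.7% and 13% of all genes. C22 alone had 9 lower and 1 higher, against 15.8% and 14.7% of all genes. C3 alone had 0 lower and 2 higher, against 7.32% and 6.35%. With library size alone the pooled split was 1 lower and 1 higher, and 0 were lower without the 5-week C22 library. Cadm3, an adhesion molecule that axons carry, was at 432 and 596 CPM in C3 against 659 and 729.5 CPM in WT-C3, and at 236 and 274 CPM in C22 against 703 and 723 CPM in WT-C22. Its difference between models was -1.05 ± 0.23 (adjusted p = 0.029), and its pooled call was lost without either C22 library. Kcna1, a potassium channel of the juxtaparanode, rose by 1.53 ± 0.22 (adjusted p = 0.0034), from controls of 50.6 to 95.0 CPM to 441 and 247 CPM in C3 and 122 and 132 CPM in C22.

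Transcription factors of myelination had 6 of 14 genes higher and 3 lower, with a median of 0.34. Without both 5-week controls 3 were called higher and 0 lower. Pou3f1 (chr4:124550600-124554448), known as Oct6, a factor of promyelinating Schwann cells, was at 156 and 146 CPM in C3 against 52.6 and 38.6 CPM in WT-C3, and at 493 and 535 CPM in C22 against 48.9 and 40.7 CPM in WT-C22. It rose by 2.62 ± 0.36 (adjusted p = 0.0029) and more in C22, by 1.79 ± 0.23 (adjusted p = 0.003). Pou3f2, or Brn2, its relative, rose by 1.48 ± 0.12 (adjusted p = 0.00038), with fitted changes of like size in C3 (1.35 ± 0.15) and C22 (1.60 ± 0.15). Sox10, which Schwann cells need at every stage, rose by 0.48 ± 0.10 (adjusted p = 0.014) and Tead1, a partner of YAP, by 0.54 ± 0.11 (adjusted p = 0.012). The corepressors of EGR2 moved apart, Nab2 up by 0.83 ± 0.13 (adjusted p = 0.0045) while Nab1 fell by 0.86 ± 0.15 (adjusted p = 0.0072). Yap1 fell by 0.46 ± 0.08 (adjusted p = 0.0054).

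Most genes of repair and immature Schwann cells were higher. Of 21 tested, 14 rose and 1 fell in the pooled fit, against 13% and 12.7% of all genes, with a median of 1.46. C3 alone had 16 higher and 1 lower (median 1.42), while C22 alone had 11 higher and 5 lower (median 1.04), among the latter Gfap and Shh, which were higher in C3. Between 12 and 14 were called higher in the pooled fit when any 1 library was left out, and 9 without both 5-week controls, and 3 were lower in C22 without the 5-week C22 library. Jun (chr4:94937271-94940459), the transcription factor that drives the repair state, was at 93.1 and 114 CPM in C3 against 55.0 and 50.8 CPM in WT-C3, and at 178 and 163 CPM in C22 against 49.9 and 38.0 CPM in WT-C22. It rose by 1.46 ± 0.21 (adjusted p = 0.0033), and more in C22, by 0.98 ± 0.22 (adjusted p = 0.029). Sox2, a factor of immature Schwann cells, was at 25.6 and 26.0 CPM in C3 and 34.6 and 23.5 CPM in C22, with controls between 8.65 and 9.78 CPM. Its rise of 1.56 ± 0.14 (adjusted p = 0.00059) was of like fitted size in C3 (1.42 ± 0.19) and C22 (1.69 ± 0.19). Egr3 rose by 2.06 ± 0.22 (adjusted p = 0.0013), Id2, an inhibitor of differentiation, by 1.77 ± 0.20 (adjusted p = 0.0015), and Megf10, an engulfment receptor, by 1.65 ± 0.14 (adjusted p = 0.00048).

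In other members of that list the fitted change was larger in C3. Ngfr, the low-affinity neurotrophin receptor p75, was at 203 and 222 CPM in C3 against 71.8 and 60.7 CPM in WT-C3, and at 129 and 107 CPM in C22 against 67.4 and 46.4 CPM in WT-C22. Runx2, a transcription factor, was at 9.85 and 11.2 CPM in C3 and 5.76 and 5.57 CPM in C22, with controls between 1.39 and 2.51 CPM. Neither difference between models passed the threshold (adjusted p 0.18 and 0.22). Tnc, the matrix protein tenascin C, was at 95.9 and 78.0 CPM in C3 against 20.0 and 14.6 CPM in WT-C3, and at 35.4 and 20.8 CPM in C22 against 19.2 and 14.5 CPM in WT-C22, and its difference of -1.61 ± 0.37 did pass (adjusted p = 0.034). Gdnf, the glial neurotrophic factor, rose by 2.75 ± 0.66 (adjusted p = 0.02) from levels at or near the limit of detection, with 2.28 and 3.20 CPM in C3 and 0.666 and 0.476 CPM in C22. Atf3, a stress-induced partner of JUN, rose by 0.91 ± 0.16 (adjusted p = 0.0061), with overlap between arms. The 1 member that fell in the pooled fit was Cdh2, called lower in both models, N-cadherin, an adhesion protein of immature Schwann cells, which fell by 0.98 ± 0.10 (adjusted p = 0.0012). Of 8 genes of non-myelinating Schwann cells, 3 rose and 0 fell in the pooled fit, with Sox2 and Ngfr among them, and these are shared with the repair list. The models split here, with 4 higher and 0 lower in C3 (median 0.70) and 3 higher and 3 lower in C22 (median -0.02), and 3 differences were called. In C22 the lower count was 1 with library size alone and 0 without the 5-week C22 library.

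Of 12 genes among neuregulin and laminin receptors 2 rose and 0 fell, a share near the 13% of all genes that were higher, with a median of 0.05, and C22 alone had 2 higher and 2 lower. The 2 encode the partners that bind neuregulin, the axonal signal for myelination. Erbb3 was at 401 and 377 CPM in C3 against 234 and 236 CPM in WT-C3, and at 499 and 484 CPM in C22 against 217 and 196 CPM in WT-C22. It rose by 0.99 ± 0.12 (adjusted p = 0.002) and its partner Erbb2 by 0.56 ± 0.09 (adjusted p = 0.0042). Of 12 genes that feed back on ERK signalling 5 rose and 0 fell, with a median of 0.20. Dusp4, a phosphatase of ERK, rose by 1.04 ± 0.16 (adjusted p = 0.0047), and Etv1, a transcription factor downstream of ERK, by 0.58 ± 0.09 (adjusted p = 0.0042). Among immediate early genes 3 of 10 rose and 1 fell, or 5 and 0 with library size alone. Fos was at 44.5 and 25.3 CPM in C3 and 33.7 and 26.3 CPM in C22, with controls between 6.5 and 12.8 CPM, and rose by 1.75 ± 0.25 (adjusted p = 0.0033).

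Proliferation genes were higher in the pooled fit. Of 23 tested, 18 rose and 0 fell, with a median of 1.32, and 17 had no overlap between arms, against 13% of all genes. Mki67, a marker of cycling cells, was at 34.3 and 23.3 CPM in C3 against 10.2 and 5.09 CPM in WT-C3, and at 24.4 and 12.8 CPM in C22 against 4.32 and 6.02 CPM in WT-C22. It rose by 1.90 ± 0.28 (adjusted p = 0.0039), and the difference between models was -0.02 ± 0.57 (adjusted p = 0.99). Top2a, a topoisomerase of dividing cells, rose by 1.83 ± 0.29 (adjusted p = 0.0048), the cyclins Ccna2 and Ccnb1 by 1.64 ± 0.25 (adjusted p = 0.0042) and 1.95 ± 0.33 (adjusted p = 0.0059), and the kinetochore gene Cenpf by 2.12 ± 0.28 (adjusted p = 0.0026). Cdc20, an activator of mitotic exit, rose by 1.18 ± 0.13 (adjusted p = 0.0013). Ccnd1, cyclin D1, was at 332 and 389.6 CPM in C3 and 214 and 169 CPM in C22, with controls of 192 and 136 CPM in WT-C3 and 72.0 and 64.8 CPM in WT-C22, and rose by 1.31 ± 0.15 (adjusted p = 0.0014) with overlap between arms across strains. Cdkn2a, which encodes cell cycle inhibitors, is a member of this list and counted among the 18, and rose by 1.55 ± 0.24 (adjusted p = 0.0042). Taken alone, C3 had 9 called higher (6.35% of all genes) and C22 17 (14.7% of all genes), and the pooled count was 12 to 19 when 1 library was left out and 9 without both 5-week controls. The C3 count was 2 without the 5-week WT-C3 library and 0 without both 5-week controls, against 17 in C22, and the C22 count was 8 without the 3-week C22 library. Which cells carried these transcripts was not tested.

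Immune genes were called in part, and macrophage and cytokine counts lay near or below the shares of all genes. Of 22 macrophage genes 4 rose and 1 fell (8 and 0 with library size alone), against 13% and 12.7% of all genes, with a median of 0.07. Their summed level was 1071.5 and 1335 CPM in C3 against 951.8 and 1234.7 CPM in WT-C3, and 564.5 and 523 CPM in C22 against 614 and 625 CPM in WT-C22. Without both 5-week controls 1 of the 22 macrophage genes was called higher and 1 lower. Trem2, a lipid receptor of macrophages, rose by 1.24 ± 0.16 (adjusted p = 0.002), from controls of 3.16 to 5.24 CPM to between 8.96 and 12.4 CPM. Lgals3, galectin 3, rose by 1.44 ± 0.27 (adjusted p = 0.008), Cx3cr1, the fractalkine receptor, by 1.08 ± 0.23 (adjusted p = 0.013), and Ctss, a lysosomal protease, by 0.59 ± 0.11 (adjusted p = 0.0087). Mrc1, the mannose receptor, fell by 0.43 ± 0.11 (adjusted p = 0.024), a call lost when any of 6 of the 8 libraries was left out, and both Ctss and Mrc1 overlapped between arms. Among 12 cytokines and chemokines 2 rose and 1 fell. Cxcl14 and Cxcl10 rose, the latter by 1.69 ± 0.19 (adjusted p = 0.0014) to between 2.36 and 9.13 CPM, and Cxcl12 fell by 0.52 ± 0.11 (adjusted p = 0.012). Interferon response genes had 6 of 14 lower, against 12.7% of all genes, and 0 higher (5 and 1 with library size alone). Their median was -0.65, and 3 were lower without the 5-week C22 library. Rsad2 was at 4.66 and 4.45 CPM in C3 against 15.9 and 7.60 CPM in WT-C3, and at 2.16 and 2.43 CPM in C22 against 6.92 and 5.59 CPM in WT-C22, and fell by 1.41 ± 0.23 (adjusted p = 0.0051). Ifit1 fell by 0.97 ± 0.23 (adjusted p = 0.02) with overlap between arms, a call lost without the 5-week C22 library, and 1 interferon gene was called without both 5-week controls. Of 5 tested genes of T cells and antigen presentation 0 were called, and 1 of 6 mast cell genes was higher. Leaving out the 3-week C3 library gave 0 higher mast cell genes, and leaving out the 5-week C3 library gave 4.

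Vessel and blood genes were lower. Of 13 genes of endothelial cells and pericytes 7 fell, against 12.7% of all genes, and 0 rose (6 and 1 with library size alone), with a median of -0.49. Without both 5-week controls 2 were called lower. Kdr, the main receptor of vascular endothelial growth factor, was at 54.2 and 59.5 CPM in C3 against 89.8 and 77.6 CPM in WT-C3, and at 38.6 and 39.8 CPM in C22 against 87.7 and 80.6 CPM in WT-C22. It fell by 0.83 ± 0.12 (adjusted p = 0.0036), Flt1, a second such receptor, by 0.67 ± 0.09 (adjusted p = 0.0032) and Cdh5, the cadherin of endothelium, by 0.55 ± 0.10 (adjusted p = 0.0086). All 5 tested blood genes fell, with a median of -2.09 and 1 called without both 5-week controls, and their sum ran from 88.3 to 166 CPM in transgenic pools and from 208 to 582 CPM in control pools. Hba-a1 (alpha globin) was at 39.7 and 37.4 CPM in C3 and 95.1 and 82.4 CPM in C22, against 213 and 130.2 CPM in WT-C3 and 113 and 273 CPM in WT-C22. Alas2, the haem enzyme of red cells, fell by 2.17 ± 0.44 (adjusted p = 0.01). The part of residual blood in the vessel changes was not tested. Perineurial genes had 3 of 8 lower, against 12.7% of all genes, with a median of -0.38 and 1 lower without the 5-week C22 library. Among the 3 was the glucose transporter Slc2a1, which fell by 0.54 ± 0.13 (adjusted p = 0.019), a call lost without the 3-week C3 library.

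Few fibroblast and matrix genes were called, with 2 of 20 higher and 2 lower (3 and 1 with library size alone) and a median of 0.02. Adipocyte genes had 0 of 9 called in the pooled fit. In C3 3 of 9 were lower, among them the fatty acid carrier Fabp4 at 124 and 231 CPM against 456 and 474 CPM in WT-C3, while C22 held 554 and 433 CPM against 397 and 515 CPM in WT-C22, and the difference was called (1.5 ± 0.38, adjusted p = 0.048). The C3 call of Fabp4 was lost when any of 3 libraries was left out, and the C3 count of lower adipocyte genes was 1 without the 3-week C3 library, 8 without the 5-week C3 library and 0 without both 5-week controls.

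Stress genes showed small changes that depended on scaling. Of 23 genes of endoplasmic reticulum stress and folding 4 rose and 2 fell, with a median of 0.23, but 12 rose and 0 fell with library size alone, and 0 to 8 rose when 1 library was left out, lowest without the 5-week WT-C22 library. Sdf2l1, a chaperone cofactor, rose by 0.61 ± 0.15 (adjusted p = 0.021), a call lost when any of 4 libraries was left out, and Xbp1, a factor of the unfolded protein response, by 0.39 ± 0.11 (adjusted p = 0.031). Xbp1 overlapped between arms, at 119.7 and 144 CPM in C3 against 117 and 106 CPM in WT-C3, and at 238 and 263 CPM in C22 against 183 and 163 CPM in WT-C22, and its call was lost when any of 6 libraries was left out. Cytosolic heat shock genes had 4 of 15 higher and 1 lower, lysosomal genes 4 of 18 higher and 1 lower, and proteasome genes 2 of 24 higher and 0 lower, with medians of 0.14, 0.10 and 0.13. With library size alone 7 heat shock, 8 lysosomal and 7 proteasome genes rose and 0 fell, and without the 5-week WT-C22 library 0 heat shock or lysosomal genes rose. Without both 5-week controls 0 genes of these 4 lists were called.

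Energy metabolism was called in few genes. Glycolysis and lactate shuttle genes had 4 of 20 lower and 2 higher, with a median of -0.31. Between 2 (without the 3-week C3 library) and 10 (without the 3-week WT-C22 library) were lower when 1 library was left out. Without both 5-week controls 2 were called lower and 0 higher. Beside Aldoc, Slc16a1, the lactate transporter MCT1 of Schwann cells, was at 154 and 108 CPM in C3 against 253 and 193 CPM in WT-C3, and at 88.2 and 96.9 CPM in C22 against 161 and 177 CPM in WT-C22. It fell by 0.82 ± 0.14 (adjusted p = 0.0054), while Pfkp, the platelet form of phosphofructokinase, rose by 0.66 ± 0.10 (adjusted p = 0.0038). Of 20 oxidative phosphorylation genes 0 were called in the pooled fit (1 higher with library size alone), 7 were lower in C3 and 6 were higher in C22. With library size alone 13 were higher in C22, without the 3-week WT-C22 library 2 were, and without the 3-week C3 library 3 were lower in C3. Juvenile growth genes, which are mostly imprinted, had 2 of 15 higher and 2 lower. H19, a growth-restraining RNA that declines after birth, was at 177 and 94.2 CPM in C3 against 627 and 306 CPM in WT-C3, and at 141 and 103 CPM in C22 against 287 and 429 CPM in WT-C22. It fell by 1.67 ± 0.29 (adjusted p = 0.0062), and Cdkn1c, an inhibitor of the cell cycle, rose by 0.58 ± 0.15 (adjusted p = 0.027), a call lost when any of 5 libraries was left out.

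A transgene effect was also estimated for each age, in 1 fit of the 8 libraries with strain and age as terms. Each age contributed 2 transgenic and 2 control libraries, and the fit had 3 residual degrees of freedom. At 3 weeks 170 genes were called (1.21% of genes), 114 higher and 56 lower, and at 5 weeks 98 (0.696%), 82 higher and 16 lower. Of the 114 called higher at 3 weeks, 69 were called higher at 5 weeks (60.5% of the first list and 84.1% of the second), and of the 56 lower, 11 were (19.6% and 68.8%). For the difference between the ages edgeR called 0 genes (0%), 468 had an unadjusted p under 0.05 and DESeq2 called 8. Genes called at both ages included Piwil4 with rises of 5.62 ± 0.30 and 5.79 ± 0.32 (adjusted p 0.019 and 0.02), Cxcl14 with 5.27 ± 0.33 and 4.42 ± 0.32 (0.019 and 0.026), and Kcnj10 with 4.05 ± 0.38 and 4.30 ± 0.39 (0.023 and 0.032). Abca1, Sox2 and Egr3 rose at both ages as well, Egr3 by 2.04 ± 0.14 and 2.12 ± 0.15 (adjusted p 0.02 and 0.026). Called at 3 weeks and not at 5 weeks were the falls of Acat2 (-1.95 ± 0.26, then -1.24 ± 0.25), Ebp (-1.0 ± 0.14, then -0.43 ± 0.14), Npc2 (-1.09 ± 0.12, then -0.77 ± 0.12) and Rsad2 (-1.72 ± 0.24, then -0.99 ± 0.25), and whether the ages differ there is not shown. Leaving out any 1 library left 0 or 1 call at 3 weeks and 0 to 117 at 5 weeks, with 0 whenever a 5-week library was left out.

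The models shared much of the early change. C3 alone had 894 genes higher and 1031 lower, and C22 2072 higher and 2229 lower. With library size alone these were 1588 and 769 in C3, and 4264 and 1369 in C22. Both called 577 genes higher, which is 64.5% of the C3 list and 27.8% of the C22 list, and 536 lower, which is 52% and 24%. C22 alone called 3030 genes and C3 alone 654. Among the 1833 genes higher in the pooled fit the median change was 0.45 in C3 and 0.58 in C22, with 1236 larger in C22, and among the 1792 lower genes it was -0.45 and -0.70, with 1377 larger in C22. The difference between models itself was called for 1112 genes, 495 with the C22 change above that of C3 and 617 below, and in 822 of them the change was of larger size in C22.

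**Figure D4:**
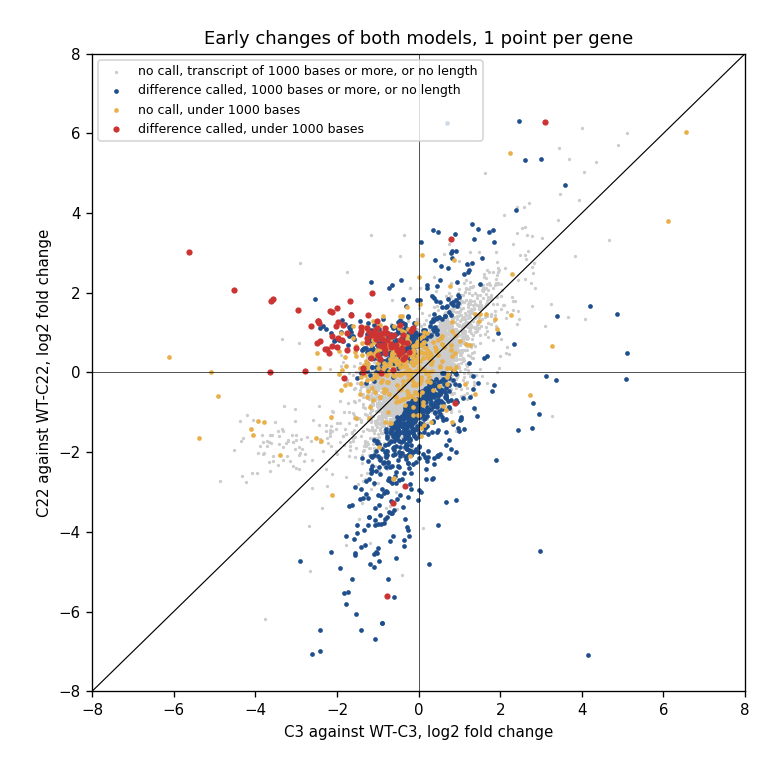
Log2 fold change in C22 (y axis) against that in C3 (x axis) at 3 and 5 weeks, 1 point per gene; blue and red points have a called difference between models, and orange and red points have a longest transcript under 1000 bases. Many blue points lie below the diagonal at the lower left, where the change is more negative in C22, and the red points gather in the upper left, with the change negative in C3 and positive in C22; 9 genes lie outside the axes.

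Of the genes called in both models, 158 went in opposite directions. Gfap, an intermediate filament of non-myelinating and immature Schwann cells, was at 20.8 and 31.9 CPM in C3 against 3.16 and 3.68 CPM in WT-C3, and at 9.06 and 6.53 CPM in C22 against 17.1 and 14.8 CPM in WT-C22. It rose by 2.94 ± 0.27 in C3 (adjusted p = 0.00091) and fell by 1.03 ± 0.24 in C22 (adjusted p = 0.012). Both the control and the transgenic levels differed between the strains, in opposite order. Gldn, gliomedin, which gathers sodium channels at nodes, was at 486 and 504 CPM in C3 against 344 and 341 CPM in WT-C3, and at 252 and 256 CPM in C22 against 357 and 333 CPM in WT-C22. It rose by 0.53 ± 0.10 in C3 (adjusted p = 0.014) and fell by 0.44 ± 0.10 in C22 (adjusted p = 0.013). The C22 calls of Gfap and Gldn were each lost when either of 2 libraries was left out, and the C3 call of Gldn when any of the 4 C57BL/6J libraries was. Shh, the Hedgehog ligand of repair cells, was at 9.46 and 22.8 CPM in C3 against 0.77 and 1.02 CPM in WT-C3, and had 0 counts in both C22 libraries against 0.574 and 1.16 CPM in WT-C22, which is at least 12.4-fold lower in C22 with 3 counts over the group as the floor. Of the Hedgehog list 10 genes were tested, and Sufu, an inhibitor of the pathway, was called higher in the pooled fit and not without either 5-week control library.

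Other genes with a called difference between models changed in 1 of them or by far more in C22. Nrg1, neuregulin 1, which injured Schwann cells make themselves, was at 10.3 and 8.98 CPM in C3 against 0.77 and 1.1 CPM in WT-C3, and at 0.832 and 0.762 CPM in C22 against 0.956 and 0.844 CPM in WT-C22. It rose by 3.37 ± 0.28 in C3 (adjusted p = 0.00067), and the difference was -3.56 ± 0.41 (adjusted p = 0.002). Gadl1, a decarboxylase, was at 28.4 and 24.8 CPM in C3 and between 0.385 and 1.69 CPM in the other 6 libraries, with a difference of -5.24 ± 0.56 (adjusted p = 0.0015). Spp1, osteopontin, was at 8.86 and 9.19 CPM in C22 against 59.3 and 81.0 CPM in WT-C22, while C3 held 454 and 571 CPM against 319.7 and 697 CPM in WT-C3. It fell by 2.95 ± 0.35 in C22 (adjusted p = 0.00046). Pclo, a presynaptic scaffold, was between 10.9 and 16.8 CPM in C3 and WT-C3, with overlap, but in C22 at 0.3 and 0.333 CPM against 9.37 and 8.34 CPM in WT-C22 (difference -5.06 ± 0.36, adjusted p = 0.00025). Jakmip2, a coiled-coil protein of microtubules and Golgi, was at 8.07 and 9.28 CPM in C3 against 13.2 and 19.0 CPM in WT-C3, a called change of -0.89 ± 0.18 (adjusted p = 0.016). In C22 it was at 0.333 CPM in both libraries against 26.1 and 26.7 CPM (difference -5.39 ± 0.32, adjusted p = 0.00015). Cldn14, a claudin, was at 4.06 and 5.97 CPM in C3 against 8.01 and 10.7 CPM in WT-C3 (adjusted p = 0.067), and in C22 at 0.133 and 0.0476 CPM against 8.99 and 6.97 CPM (difference -5.39 ± 0.54, adjusted p = 0.0012).

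The differences with the C22 change above that of C3 included many short transcripts. Rps28, a protein of the small ribosomal subunit, was at 7.89 and 5.82 CPM in C3 against 43.1 and 36.3 CPM in WT-C3, and at 48.0 and 21.5 CPM in C22 against 7.04 and 13.3 CPM in WT-C22. Its difference was 4.36 ± 0.57 (adjusted p = 0.0033). Rps29, Rpl38 and Rps21 gave 5.42 ± 0.94 (adjusted p = 0.011), 3.80 ± 0.61 (adjusted p = 0.0072) and 3.75 ± 0.55 (adjusted p = 0.005), and Bc1, a short noncoding RNA, 8.67 ± 1.57 (adjusted p = 0.013), a call lost when any of 3 libraries was left out. Of 28 cytosolic ribosomal protein genes, 11 were lower in C3 and 24 higher in C22, with 20 differences called, although only 4 of the 28 have a longest transcript under 1000 bases. Over all 429 tested genes under 1000 bases the median was -0.51 in C3 and 0.39 in C22, and the median difference was 0.80 against -0.02 over the 13627 longer genes, with 100 differences called, 96 of them above. Of the 158 opposite calls, 126 were lower in C3 and higher in C22, and 33 of these were under 1000 bases, against 1 of the 32 in the other direction. The share of counts on these short genes was 0.694% and 0.784% in C3, 1.0% and 1.13% in WT-C3, 1.27% and 1.25% in C22 and 0.845% and 1.14% in WT-C22. The part of RNA length or library preparation in these differences was not tested, and the ribosomal and oxidative phosphorylation results stand beside these values.

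For comparison, the same 4 groups were fitted at 9 and 12 weeks, where 1323 genes were higher (9.4%) and 1266 lower (8.99%). Of the 1833 genes higher early, 974 were called higher late (53.1% of the early and 73.6% of the late list), and of the 1792 lower genes 874 were (48.8% and 69%). In opposite directions 0 genes were called, and 3525 of the 3625 early genes kept the sign of their change. Since these genes were chosen by their early values, the sizes of their late changes give no test of a decline, and the medians were 0.47 late and 0.51 early for the higher and -0.46 and -0.59 for the lower genes. Cholesterol synthesis had 19 of 20 lower late, with a median of -1.34, and 18 fitted changes were smaller than at 3 and 5 weeks, against 7142 of the 14079 genes tested. Hmgcs1, for example, fell by 1.28 ± 0.20 late (adjusted p = 0.0033), having fallen by 1.94 ± 0.32 early, and Cxcl14 and Btc rose by 3.00 ± 0.27 (adjusted p = 0.00027) and 2.12 ± 0.25 (adjusted p = 0.001). Larger late values were fitted for Tyrp1 (5.78 ± 0.35, adjusted p = 3.7e-05), Kcnj10 (5.03 ± 0.36, adjusted p = 8.9e-05) and Piwil4 (6.31 ± 0.20, adjusted p = 4.2e-07). For the difference between late and early effects edgeR called 0 genes (0%), 845 had an unadjusted p under 0.05 and DESeq2 called 10. The late libraries include the shallowest of the 8, C3 at 9 weeks, with 2140142 counts.

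**Figure D5:**
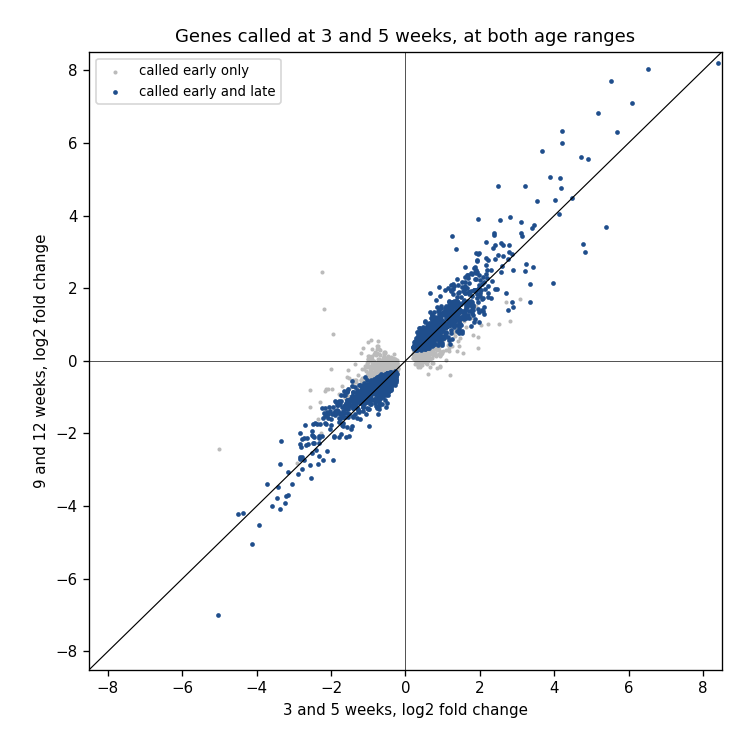
Log2 fold change at 9 and 12 weeks (y axis) against that at 3 and 5 weeks (x axis) for the genes called early, 1 point per gene; blue points were called at both age ranges and grey points early only. Blue points lie in the lower left and upper right only, and 2 genes and the human gene lie outside the axes or are not drawn.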

How the data were processed

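Sciatic nerves of 4 groups were profiled by poly(A) RNA-seq, 1 pool per group and age, and the sample labels used here give no batch. The authors deposited raw counts per gene, unnormalised, for GRCm39 joined to the human transgene locus with Ensembl 110 genes, and the submitters' processing notes name FastQC 0.11.9, cutadapt 2.10, STAR 2.7.5a, UMI-tools 1.1.1 and HTSeq 0.12.4. Duplicates and reads shared between the human and mouse copies can therefore move counts. Of 56956 genes (56941 mouse and 15 human), 56323 matched a symbol. In the 8 early libraries, lines that name no gene held 8.72 to 11.3% (no feature), 1.78 to 1.96% (ambiguous) and 2.76 to 3.93% (not unique) and stayed out of library sizes and tests.

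Tests were edgeR 4.0.16 (limma 3.58.1, R 4.3.3) quasi-likelihood fits with TMM factors and Benjamini-Hochberg adjustment over the 14079 genes with log2 CPM above 1 in 2 or more early libraries. The pooled fit had strain as a block. Residual degrees of freedom were 5 in the pooled fits and 4 in the fit with 1 level per group. They were 3 in the fit with 1 transgene effect per age and 10 across both stages. SE is the size of the log2 fold change divided by the square root of F. Ratios of same-age libraries had 0.1 CPM added to both levels. The steps were tested on simulated data. DESeq2 1.42.0 was an alternative, beside other scalings, filters, blocks and left-out libraries. Precision is given by the SE, and the depth floors cover counting error only.

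Genes named were the human gene and mouse Pmp22, members of the described lists, the 12 largest called rises and falls with a mean of at least 5 CPM and 1 direction in all 4 same-age comparisons, and the 6 largest called differences each way between models. Genes with no symbol or with names of predicted genes, and pseudogenes, were left out of these rankings. Members and lists were chosen with earlier results of these data known. Some members of the lists are counted but not reported here by name. The other libraries of the series were not used here, except those at 9 and 12 weeks for comparison.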

Additional observations from a re-analysis of the deposited data

Results flagged for a closer look

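In 6 of 234 sets of 4 libraries (2.56%), 1 library stood apart from the other 3 by Dixon's test, and chance gives about 1 in 20. Among control libraries WT-C3 at 5 weeks stood apart for Tchh (16.7 CPM) and Mrc1 (46.6 CPM). Among transgenic libraries C22 at 3 weeks stood apart for the human gene ENSG00000109099 (11870 CPM) and Trem2 (12.4 CPM), and C22 at 5 weeks for Ccna2 (5.86 CPM) and Pfkp (52.3 CPM).

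The early change differed between C22 and C3, by the edgeR test of the difference, for 1112 genes. Of the named genes, the C22 change exceeded the C3 change on the log2 scale by 8.67 for Bc1, 5.42 for Rps29, 4.36 for Rps28, 3.85 for Slain1, 3.80 for Rpl38, 3.75 for Rps21 and 1.79 for Pou3f1. The C22 change minus the C3 change was -6.04 for Cyp2j13, -5.39 for Cldn14, -5.39 for Jakmip2, -5.24 for Gadl1, -5.06 for Pclo, -4.57 for Wt1, -3.98 for Gfap and -3.76 for Sema5a. It was -3.56 for Nrg1, -2.96 for Spp1, -2.62 for Drp2, -1.74 for Sc5d, -1.70 for Pcyt1b, -1.44 for Pmp22, -1.33 for Ugt8a and -0.97 for Gldn. The fitted value for Shh, -11.24, depends on the prior count because both C22 libraries were at 0, and is no bound. Strain and copy number cannot be told apart in any of these.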

How the results depend on the processing

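No named gene changed direction under any alternative run. In the pooled early fit 3625 genes were called. With each same-age comparison as a block the count was 2164, with the FVB/NRJ pairs crossed 2180, at an adjusted p under 0.01 1251, and without both 5-week controls 703. Age changes of a model and its control correlated at 0.123 in C57BL/6J and at -0.44 in FVB/NRJ, so the ages do not pair the libraries, and age as a block gave 3248 calls. The crossed pairs, the limit to transcripts of at least 1000 bases and the omission of the 5-week controls were chosen after seeing the data.

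In C3 the count of 1925 was 3239 without the filter and 607 without 5-week controls. In C22 4301 became 2301 without them. The difference between models, 1112 genes, gave 2018 without the filter and 575 without those controls. The 170 calls at 3 weeks were 390 with library size alone, 1386 with DESeq2 and 772 without the filter, and the 98 calls at 5 weeks were 153, 1531 and 996. For the difference between the ages DESeq2 called 8 genes, and for late against early it called 10, or 359 with edgeR and no filter. The cause of these shifts was not tested.

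When 1 library was left out, the pooled count ran from 2063 (without C22 at 3 weeks, and 2065 without WT-C22 at 5 weeks) to 3375. The C3 count ran from 568 (without WT-C3 at 3 weeks) to 1877, with 586 without C3 at 3 weeks and 705 without WT-C3 at 5 weeks. The C22 count ran from 2453 (without C22 at 3 weeks) to 4235, with 2642 without WT-C22 at 5 weeks. The difference between models ran from 516 (without WT-C3 at 3 weeks) to 1038, with 531 without C22 at 3 weeks, 608 without WT-C22 at 3 weeks, 713 without C3 at 3 weeks and 718 without C22 at 5 weeks. The 3-week count was 0 or 1 and the 5-week count 0 to 117. The late count ran from 1286 (without C22 at 12 weeks) to 2616, with 1445 without C22 at 9 weeks and 1500 without WT-C22 at 9 weeks. It was 0 to 0 for both differences between ages or stages.

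Of the 117 genes named for the pooled early effect, 72 kept their side of the threshold under all 20 alternatives, and 18 lost the call when 1 library was left out, among them Mrc1 and Xbp1, each with 6 of the 8 libraries. Depth limits genes near 0.0894 to 0.294 CPM, the level of 3 counts, and with 1 pool per group and age no variance between animals was measured.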
